A study of Drosophila melanogaster with 12 samples.

Results

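Nicotinic acetylcholine receptors are the ion channels that open when the transmitter acetylcholine binds, and in insects they carry most of the fast excitation between central neurons. Drosophila melanogaster has 10 annotated subunit genes, nAChRalpha1 to nAChRalpha7 and nAChRbeta1 to nAChRbeta3, which were selected by their FlyBase symbols. Of these 10 genes, 9 had a row in the deposited table of 12610 genes, and nAChRbeta3 was not analysed here. The levels of the 9 genes were compared in cells sorted by fluorescence from dissociated brains of larvae early in instar 3.

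Libraries came from 4 groups of 3. They were GFP-positive cells of rfx knock-out (KO) brains, GFP-positive cells of wild-type (WT) brains, GFP-negative cells of KO brains and GFP-negative cells of WT brains. The series describes the sorted cells as those expressing Rfx, which encodes a DNA-binding regulator of cilium genes, so GFP was taken as the mark of those cells. The alleles, the driver of GFP and the number of brains behind a library are not given in the sources used here. The labels call the cells of all 4 groups neurons. Nothing in the labels says that the 3 replicates of a group came from separate animals, so a p-value here reflects library-to-library spread, which may be technical.

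A nicotinic receptor is a ring of subunits around a cation pore. Alpha subunits carry the pair of neighbouring cysteines that marks the acetylcholine binding site, and beta subunits lack it and usually join alpha subunits in mixed receptors. In flies these receptors are the targets of neonicotinoid insecticides and of spinosad, and different subunit combinations are known to differ in their response to these compounds.

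Read totals per library ran from 20301256 to 29771321. Rfx averaged 1126 ± 170 normalised counts in KO GFP-positive and 2793 ± 217 in WT GFP-positive cells (SD, n = 3 each), a log2 difference of -1.32 ± 0.11 (SE; limma adjusted p = 1.03e-05). Summed over 6 neuroblast and progenitor markers, the libraries held 22.9 to 38.7 in KO GFP-positive, 21.4 to 27.7 in WT GFP-positive, 1204 to 1375 in KO GFP-negative and 973 to 1181 in WT GFP-negative cells. The GFP-negative cells, labelled as neurons, thus held progenitor transcripts at levels far above those of the GFP-positive cells, and 6 of the 6 progenitor markers were lower in GFP-positive cells of both genotypes. Of all tested genes, 12.9% were called lower in GFP-positive cells of KO and 12.3% of WT brains. Of 7 glial markers, 4 (Eaat1, wrapper, nrv2 and gcm) were lower in GFP-positive cells of both genotypes, and their summed level was 319 to 466 in KO GFP-positive, 318 to 355 in WT GFP-positive, 851 to 971 in KO GFP-negative and 654 to 879 in WT GFP-negative libraries. Most of that sum came from nrv2 and Eaat1, while repo, the defining glial marker, averaged 17.7 ± 11.6 in KO GFP-positive, 17.7 ± 11.4 in WT GFP-positive, 21.1 ± 0.654 in KO GFP-negative and 17.8 ± 1.49 in WT GFP-negative cells and was not called. KO GFP-positive replicate 3 held 2.54% rRNA reads and WT GFP-positive replicate 2 held 12.2%, against at most 0.976% in the other 10 libraries.

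Values below are the authors' normalised counts, on a per-million (CPM) scale. A difference is a log2 difference of value plus 1 from limma with its standard error. A gene was called where its Benjamini-Hochberg adjusted p, over the 9912 genes tested, was under 0.05. All 9 subunit genes in the table passed the low-value filter. They were well covered, with between 504 reads (nAChRalpha3) and 8312 reads (nAChRalpha2) in a library. Counting error at the lowest coverage was 4.45% for nAChRalpha3 and at most 3.13% for the other 8 genes, and it does not cover amplification. The spread between the replicates of a group ran from 1.95% to 45.0% of the mean.

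The 9 genes lie on 4 chromosome arms (BDGP6.54 annotation). Only nAChRalpha1, nAChRalpha2 and nAChRbeta2 are close neighbours. On 3R, nAChRalpha1 (FBgn0000036) spans 24393896 to 24457157 on the minus strand, nAChRalpha2 (FBgn0000039) spans 24485428 to 24491147 on the plus strand, and nAChRbeta2 (FBgn0004118) spans 24509228 to 24515106 on the minus strand. The 3 genes together occupy 121 kb, with gaps of 28.3 kb and 18.1 kb between them. Of the 5 other annotated genes inside this stretch, 1 had a row in the table, mir-1017, which lies within nAChRalpha2 and averaged at most 1.02 normalised counts in any group. On 3L lie nAChRbeta1 (FBgn0000038, 4429349 to 4435993, plus strand) and nAChRalpha4 (FBgn0266347, 23206669 to 23287448, plus strand). On 2L lie nAChRalpha6 (FBgn0032151, 9793317 to 9886250, minus strand) and nAChRalpha5 (FBgn0028875, 14040170 to 14094401, plus strand). On X lie nAChRalpha3 (FBgn0015519, 8276200 to 8367169, minus strand) and nAChRalpha7 (FBgn0086778, 19327075 to 19348447, minus strand). The library protocol named in the labels keeps no strand. Exons of nAChRalpha3 share 251 bases, or 2.39% of its exon length, with CG1636 on the other strand, and exons of nAChRalpha4 share 247 bases, or 4.08%, with lncRNA:CR46475, so a small part of their reads could belong to those genes.

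To set levels of different genes side by side, each normalised count was divided by the merged exon length of the gene. On this per-kilobase scale nAChRalpha2 had the highest level of the 9 genes in each of the 4 groups. It stood at 115 ± 16.7 in KO GFP-positive, 123 ± 2.40 in WT GFP-positive, 47.3 ± 7.96 in KO GFP-negative and 45.6 ± 5.23 in WT GFP-negative cells (SD, n = 3 each). Its libraries did not overlap those of the next gene in any group. The beta subunit genes took the next 2 ranks, nAChRbeta2 above nAChRbeta1 in GFP-positive cells and nAChRbeta1 above nAChRbeta2 in GFP-negative cells. The libraries of these 2 genes overlapped in all 4 groups, so their order is not resolved in any of them. Per kilobase, nAChRbeta2 averaged 59.7 ± 16.8 in KO GFP-positive, 52.6 ± 11.9 in WT GFP-positive, 27.3 ± 8.00 in KO GFP-negative and 25.6 ± 1.59 in WT GFP-negative cells, and nAChRbeta1 averaged 53.6 ± 19.4, 41.8 ± 18.4, 31.6 ± 7.34 and 28.4 ± 3.07 in the same groups.

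In GFP-positive cells the next ranks belonged to nAChRalpha4, nAChRalpha1 and nAChRalpha7, followed by nAChRalpha6. In KO GFP-positive cells their per-kilobase levels were 28.5 ± 3.04, 22.7 ± 3.25 and 21.5 ± 3.81, and in WT GFP-positive cells 27.2 ± 3.64, 21.6 ± 3.39 and 21.0 ± 3.32. Each of these 3 overlapped its neighbour in rank in GFP-positive cells of both genotypes. In GFP-negative cells the same 3 genes stood in another order. There nAChRalpha7 led with 13.0 ± 3.87 in KO and 14.9 ± 2.67 in WT cells per kilobase, nAChRalpha4 followed with 12.5 ± 1.69 in KO and 11.1 ± 1.27 in WT cells, and nAChRalpha1 stood at 8.25 ± 1.40 in KO and 8.89 ± 0.747 in WT cells. nAChRalpha6 ranked between nAChRalpha4 and nAChRalpha1 in these cells, at 8.30 ± 1.05 in KO and 9.96 ± 1.89 in WT GFP-negative cells per kilobase. The libraries of nAChRalpha4 lay above those of nAChRalpha1 in both genotypes, and those of nAChRalpha7 lay above those of nAChRalpha4 in WT but not in KO GFP-negative cells. The lowest 2 ranks belonged to nAChRalpha5, with per-kilobase means from 5.99 to 11.8 over the groups, and nAChRalpha3, with means from 2.23 to 3.70. The libraries of nAChRalpha3 lay below those of nAChRalpha5 in every group.

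**Figure D1:**
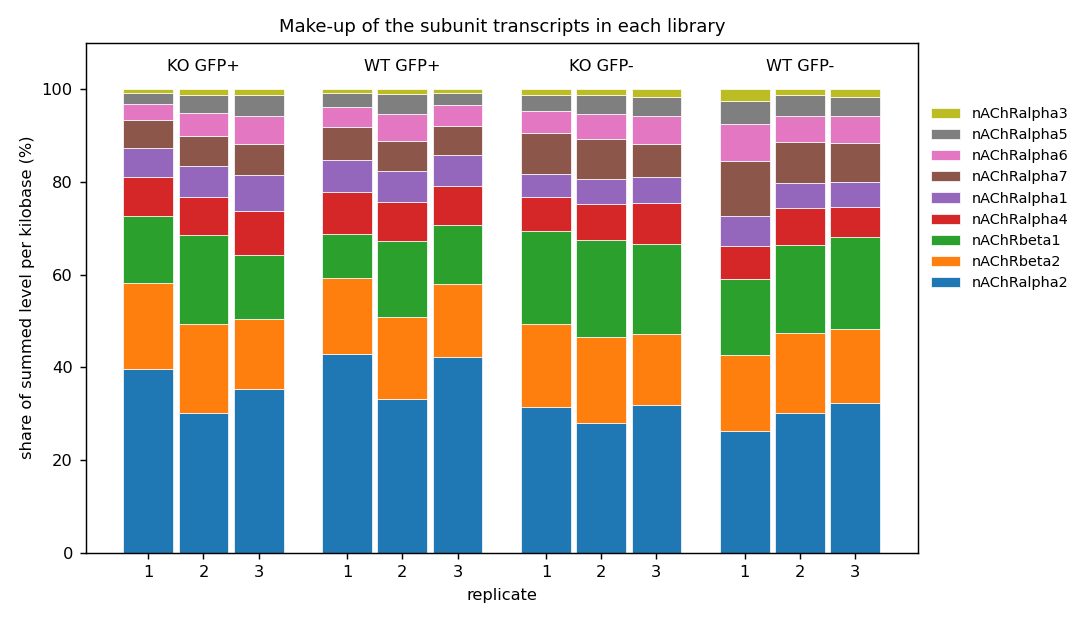
Share of each subunit gene in the summed per-kilobase level of the 9 genes (percent, vertical axis) in the 12 libraries, grouped by genotype and GFP, with replicates on the horizontal axis. nAChRalpha2 takes the largest share of each bar, from 26.2% to 43.0%, and nAChRalpha3 the smallest, from 0.861% to 2.49%.

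The stacked shares show how the mixture of subunit transcripts differed between the sorted fractions. nAChRalpha2 made up 35.0 ± 4.73% of the per-kilobase sum in KO GFP-positive cells, 39.5 ± 5.42% in WT GFP-positive, 30.5 ± 2.10% in KO GFP-negative and 29.5 ± 3.07% in WT GFP-negative cells. nAChRbeta1 made up 15.8 ± 2.95%, 12.8 ± 3.51%, 20.1 ± 0.758% and 18.4 ± 1.75% in the same groups. The share of nAChRalpha2 was thus higher, and that of nAChRbeta1 lower, in the means of GFP-positive cells, but individual libraries overlapped between the fractions for both genes. Over the 6 GFP-positive libraries the share of nAChRalpha7 ran from 6.20% to 7.14%, and over the 6 GFP-negative libraries from 7.08% to 11.8%. For nAChRalpha3 the share ran from 0.861% to 1.28% in GFP-positive and from 1.27% to 2.49% in GFP-negative libraries. For both genes the ranges met at a single edge. Together the 2 beta genes made up 33.8% of the per-kilobase sum over the 12 libraries (SD 4.27). Shares of one sum move together by construction, and they carry no test here.

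The comparison of GFP-positive with GFP-negative cells within a genotype asks how the Rfx-marked cells differ from the rest of the sorted brain. In KO brains 8 of the 9 subunit genes were higher in GFP-positive cells and 0 were lower, nAChRbeta1 being the gene that was not called. Of all tested genes, 23.6% were called higher and 12.9% lower in this comparison. In WT brains 4 of the 9 were higher and 0 lower, against a background of 25.7% higher and 12.3% lower. The 4 were nAChRalpha1, nAChRalpha2, nAChRalpha4 and nAChRbeta2, which were 2.05-fold to 2.70-fold higher in group means. The libraries of a run of title numbers deviated together in each pair of groups compared, though not in every pair of libraries of a run. With the run as a block 9 of the 9 genes were called higher in KO brains (28.6% of all tested genes) and 7 of the 9 in WT brains (30.6%). The median log2 difference of the 9 genes was 0.94 in KO and 0.58 in WT brains, beside 0.07 in KO and 0.09 in WT brains over all tested genes. The background depends on scaling, since 2341 genes were higher and 1274 lower in KO brains and 2550 and 1215 in WT brains, but 1344 and 2029 in KO and 1133 and 2263 in WT brains under total-count scaling. These are mixed cell populations, and in bulk RNA more cells that express a gene and more RNA per cell cannot be told apart.

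**Figure D2:**
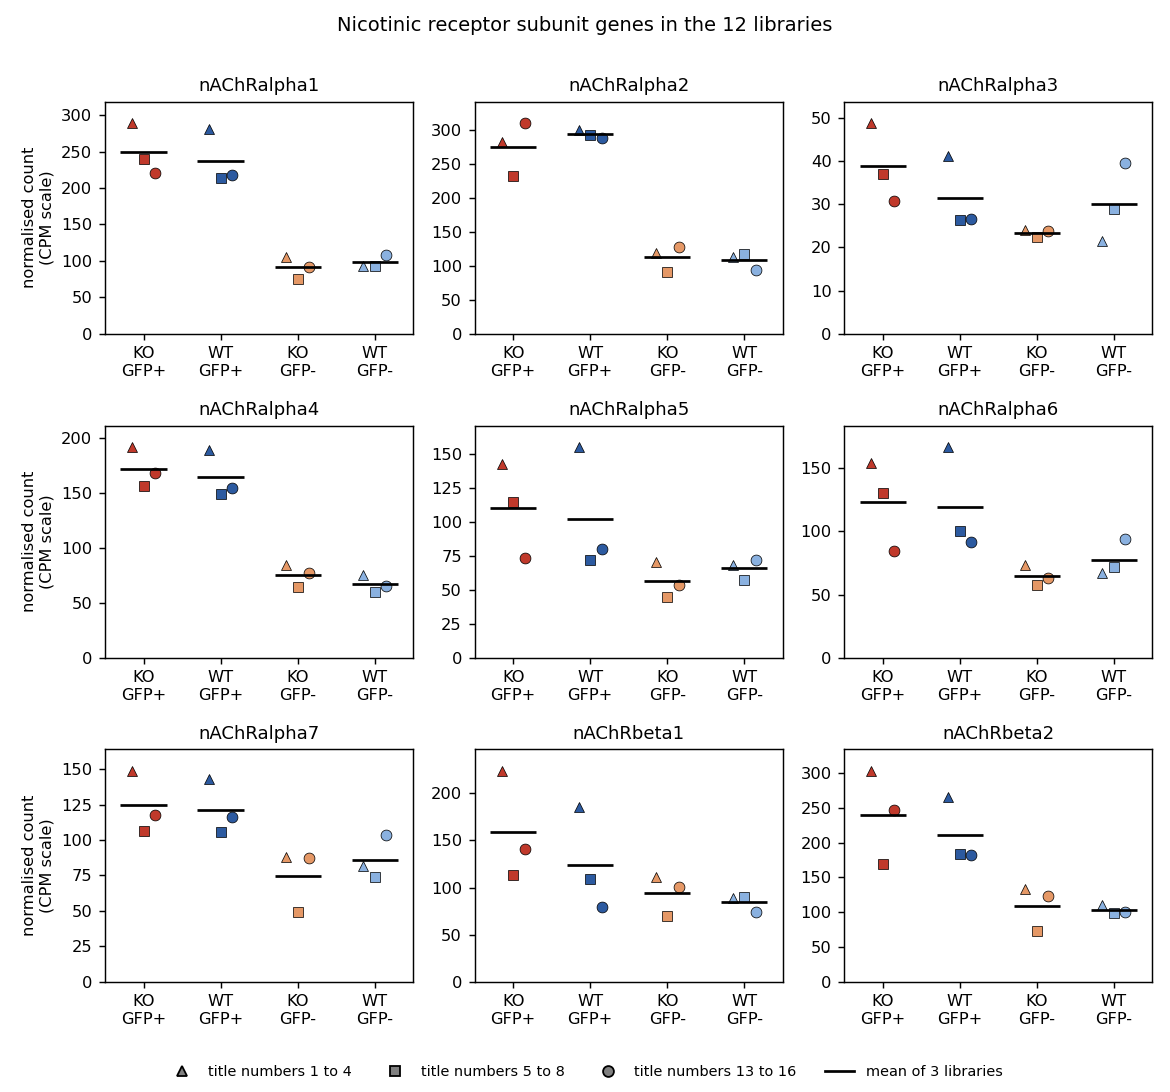
Normalised count (CPM scale, linear axis from 0) of each of the 9 subunit genes in the 12 libraries, by group, with bars at the mean of 3 libraries and symbols for the run of title numbers. nAChRalpha1, nAChRalpha2, nAChRalpha4 and nAChRbeta2 sit higher in GFP-positive than in GFP-negative cells of both genotypes without overlap, while KO and WT libraries of a fraction overlap for each of the 9 genes.

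nAChRalpha2, an alpha subunit known to enter mixed receptors with other subunits, had the largest log2 difference of the 9 genes in WT brains. Its replicates 1, 2 and 3 held 311, 283 and 232 normalised counts in KO GFP-positive cells, against 128, 119.8 and 91.6 in KO GFP-negative cells. In WT brains they held 288, 299.8 and 294 in GFP-positive cells, against 94.5, 114 and 118 in GFP-negative cells. The lowest GFP-positive library of either genotype stood well above the highest GFP-negative one. The ratio of means was 2.44 in KO brains (log2 difference 1.28 ± 0.14, limma adjusted p = 1.73e-05) and 2.70 in WT brains (1.43 ± 0.14, adjusted p = 6.25e-06).

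nAChRalpha1 lies 28.3 kb from nAChRalpha2 on 3R and is, with nAChRbeta2, among the subunits linked to neonicotinoid resistance in flies. It had 220.3, 289.6 and 239.6 normalised counts in KO GFP-positive cells, against 91.7, 106 and 75.2 in KO GFP-negative cells. In WT brains its replicates held 218, 281 and 214 in GFP-positive cells, against 108, 93.7 and 93.0 in GFP-negative cells. Replicate 2 was the highest GFP-positive library in both genotypes, and no GFP-positive library overlapped a GFP-negative one. The ratio was 2.75 in KO brains (log2 difference 1.45 ± 0.15, limma adjusted p = 9.83e-06) and 2.42 in WT brains (1.26 ± 0.15, adjusted p = 3.08e-05).

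nAChRbeta2, the beta gene of the 3R cluster, had 247, 304 and 169 normalised counts in KO GFP-positive cells, against 123, 133 and 73.0 in KO GFP-negative cells. The WT libraries held 183, 266 and 184 in GFP-positive cells, against 99.7, 110.2 and 98.7 in GFP-negative cells. The fractions did not overlap in either genotype, and KO replicate 3 was the lowest library of both KO fractions. The ratio was 2.19 in KO brains (log2 difference 1.13 ± 0.24, limma adjusted p = 0.00313) and 2.05 in WT brains (1.01 ± 0.24, adjusted p = 0.00587). The 3 genes of the cluster were thus called higher in GFP-positive cells of both genotypes. So was Pp1alpha-96A, a protein phosphatase gene that lies next but one to nAChRbeta2 and was picked after its values were seen, with 226 ± 28.7 against 116 ± 11.4 normalised counts in KO and 229 ± 36.6 against 116 ± 7.41 in WT brains, GFP-positive cells given before GFP-negative cells. DZIP1, which lies between nAChRbeta2 and Pp1alpha-96A, averaged 0.438 ± 0.204 in KO GFP-positive, 0.513 ± 0.345 in WT GFP-positive, 0.917 ± 0.395 in KO GFP-negative and 1.34 ± 0.819 in WT GFP-negative cells and was not called (log2 difference -0.40 in KO and -0.60 in WT brains).

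nAChRalpha4, a subunit gene on 3L whose mutants are known for disturbed sleep, followed the same pattern from another chromosome. It had 169, 192 and 156 normalised counts in KO GFP-positive cells, against 77.1, 84.8 and 64.6 in KO GFP-negative cells. In WT brains it had 155, 189.8 and 149 in GFP-positive cells, against 65.8, 75.4 and 60.2 in GFP-negative cells. The GFP-positive libraries were all far above the GFP-negative ones. The ratio was 2.28 in KO brains (log2 difference 1.18 ± 0.14, limma adjusted p = 2.40e-05) and 2.45 in WT brains (1.28 ± 0.14, adjusted p = 1.16e-05).

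**Figure D3:**
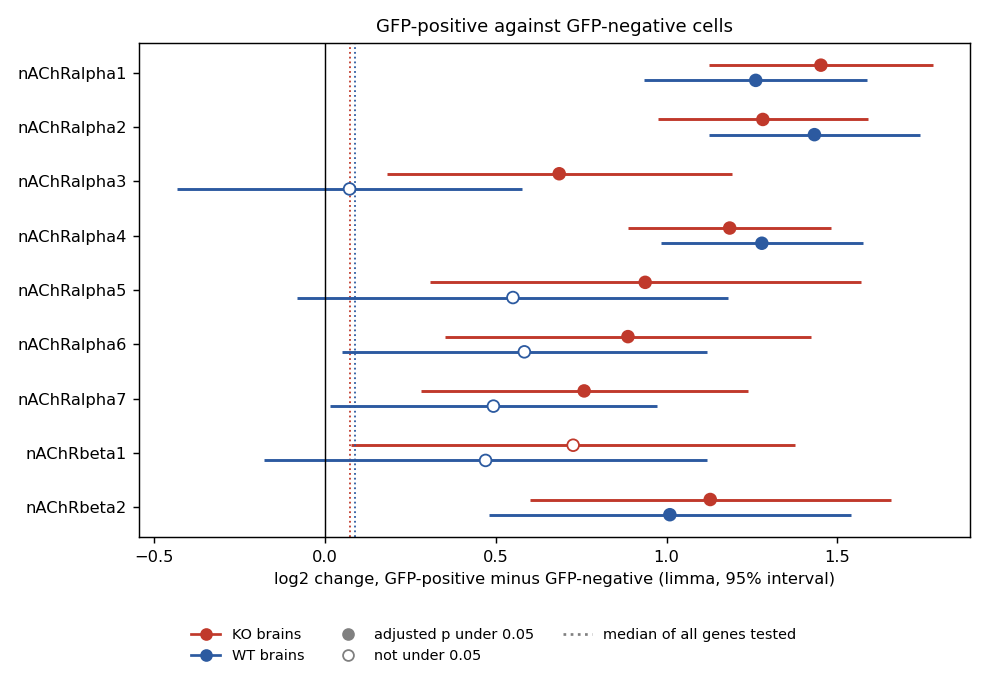
Log2 difference between GFP-positive and GFP-negative cells (horizontal axis, limma estimate with 95% interval) of the 9 subunit genes in KO and WT brains, with filled points where the adjusted p was under 0.05 and dotted lines at the median of all tested genes. nAChRalpha1, nAChRalpha2 and nAChRalpha4 lie above 1.1 in both genotypes, and nAChRalpha3 in WT brains lies at 0.07.

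The plot of these differences shows a second set of genes with smaller values. nAChRalpha5, nAChRalpha6 and nAChRalpha7 are close relatives within the family, and nAChRalpha6 is the target of spinosad. The first, nAChRalpha5, had 73.6, 143 and 115 normalised counts in KO GFP-positive cells, against 53.5, 70.6 and 44.4 in KO GFP-negative cells. The WT brains gave 79.6, 155 and 71.9 in GFP-positive cells, against 71.6, 68.4 and 57.1 in GFP-negative cells, so that the fractions nearly touched and only replicate 2 stood clear. Its log2 difference was 0.94 ± 0.29 in KO brains (limma adjusted p = 0.0235) and 0.55 ± 0.29 in WT brains, which was not called (adjusted p = 0.156) but was called with the run as a block (adjusted p = 0.0354).

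nAChRalpha6 had 84.9, 154 and 130.5 normalised counts in KO GFP-positive cells, against 63.1, 73.4 and 57.2 in KO GFP-negative cells, without overlap. In WT brains it had 91.6, 167 and 100.1 in GFP-positive cells, against 94.2, 66.7 and 71.5 in GFP-negative cells, where the fractions overlapped through replicate 1. Its log2 difference was 0.89 ± 0.25 in KO brains (limma adjusted p = 0.0133) and 0.58 ± 0.25 in WT brains, which was not called (adjusted p = 0.0801) but was called with the block (adjusted p = 0.0382). nAChRalpha7 is known for its part in the giant fibre escape circuit. It had 118, 149 and 107 normalised counts in KO GFP-positive cells, against 87.4, 88.2 and 49.1 in KO GFP-negative cells. WT libraries had 116, 143 and 106 in GFP-positive cells, against 103, 81.8 and 73.6 in GFP-negative cells. The fractions did not overlap in either genotype, by a narrow margin in WT brains. Its log2 difference was 0.76 ± 0.22 in KO brains (limma adjusted p = 0.0168) and 0.49 ± 0.22 in WT brains, which was not called (adjusted p = 0.0973) but was called with the block (adjusted p = 0.0145) and in a fit of only the WT groups (adjusted p = 0.0406).

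nAChRalpha3, the gene with the lowest level per kilobase, had 30.8, 48.9 and 37.0 normalised counts in KO GFP-positive cells, against 23.7, 23.9 and 22.5 in KO GFP-negative cells, without overlap. In WT brains it had 26.5, 41.2 and 26.3 in GFP-positive cells, against 39.6, 21.5 and 28.8 in GFP-negative cells. Among the WT libraries, replicate 2 was the highest GFP-positive and the lowest GFP-negative one, while replicate 1 was the highest GFP-negative one. Its log2 difference was 0.69 ± 0.23 in KO brains (limma adjusted p = 0.0354) and 0.07 ± 0.23 in WT brains (95% interval -0.43 to 0.58, adjusted p = 0.826). The small WT difference was negative under edgeR (-0.08), DESeq2 (-0.11) and total-count scaling (-0.22), and also without WT GFP-positive replicate 2 (-0.14) or WT GFP-negative replicate 2 (-0.14).

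nAChRbeta1, an early described beta subunit, had 141, 224 and 113 normalised counts in KO GFP-positive cells, against 101, 111 and 69.4 in KO GFP-negative cells. The WT libraries had 79.3, 185 and 109 in GFP-positive cells, against 73.9, 89.1 and 90.3 in GFP-negative cells. The KO fractions were separated by a narrow gap, and the WT fractions overlapped. Its log2 difference was 0.73 ± 0.30 in KO (95% interval 0.08 to 1.38, limma adjusted p = 0.0757) and 0.47 ± 0.30 in WT brains (-0.18 to 1.12, adjusted p = 0.235), called in neither genotype. In KO brains it was called with the run as a block (adjusted p = 0.0102), with lane as a covariate (0.0120) and when the 2 rRNA-rich libraries were left out (0.00941). The KO difference was 1.00, 0.70 and 0.47 within the runs of title numbers 1 to 4, 5 to 8 and 13 to 16.

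The libraries of the 2 fractions did not overlap for 9 of the 9 genes in KO brains and for 6 of the 9 in WT brains, where GFP-positive libraries were the higher ones. Of all tested genes, 30.3% were free of overlap in this direction in KO and 33.0% in WT brains. The larger number of calls in KO brains does not show a difference between the genotypes. The interaction of genotype with GFP called 0 of the 9 genes in limma, edgeR and DESeq2, with 0 at an unadjusted limma p under 0.05. It called 0.555% of all tested genes in limma (55 genes, or 101 with the run as a block). At that share, a count of 0 among 9 genes does not set them apart. nAChRalpha3 had the largest interaction estimate, a log2 value of 0.61 (95% interval -0.10 to 1.33, limma adjusted p = 0.99981). The interaction values of the other 8 genes ran from -0.15 for nAChRalpha2 to 0.39 for nAChRalpha5.

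nAChRalpha1, nAChRalpha2, nAChRalpha4 and nAChRbeta2 were called higher in both genotypes under each of the 18 alternatives tried. In KO brains the calls of nAChRalpha3, nAChRalpha5, nAChRalpha6 and nAChRalpha7 were lost without GFP-positive replicate 2, which left 4 genes called, and also without GFP-negative replicate 3, which left 4. Of the 9912 genes tested, 1628 and 1677 were called higher in these fits. The KO call of nAChRalpha3 was also lost without GFP-positive replicate 3 (limma adjusted p = 0.0578), GFP-negative replicate 1 (0.0764) or GFP-negative replicate 2 (0.0644), and that of nAChRalpha5 without GFP-positive replicate 3 (0.0577) or GFP-negative replicate 1 (0.0630). Calls were gained by nAChRbeta1 in KO brains without GFP-positive replicate 3 (adjusted p = 0.0358), beside the gains given above, and by nAChRalpha6 in WT brains without GFP-positive replicate 1 (0.0498). Under edgeR, quantile normalisation and total-count scaling 6 genes were called in KO brains. Of the 9912 genes tested, 1884, 2118 and 1344 were called higher there under these settings.

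KO GFP-negative replicate 3 and the libraries with title numbers 1 to 4, except that of WT GFP-negative cells, stood apart on these genes. The replicate 2 libraries of the 4 groups carry these title numbers. Against the group means, the median subunit gene of replicate 2 deviated by 0.35 in KO GFP-positive, 0.36 in WT GFP-positive, 0.23 in KO GFP-negative and 0.06 in WT GFP-negative cells (log2). Replicate 2 held the highest value for 8, 9, 8 and 2 of the 9 genes in the same groups. The median of 7 pan-neuronal markers deviated with it, by 0.31, 0.20, 0.26 and 0.10. KO GFP-negative replicate 3 was the lowest of its group for 9 of the 9 genes, with a median deviation of -0.29, and the markers deviated by -0.32. Without the 4 libraries with title numbers 1 to 4, an alternative chosen after seeing the data, 7 genes were called higher in KO and 4 in WT brains. Of the 9912 genes tested, 1699 were called higher in KO and 1803 in WT brains in that fit. Within the single runs of title numbers 1 to 4, 5 to 8 and 13 to 16, the GFP-positive library of KO brains was the higher one for 9 of the 9 genes in all 3, with median log2 differences of 1.06, 1.20 and 0.47. The WT GFP-positive library was the higher one for 9, 8 and 7 of the 9, with medians of 1.26, 0.52 and 0.16. For nAChRalpha3 in WT brains the runs gave 0.91, -0.13 and -0.57.

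**Figure D4:**
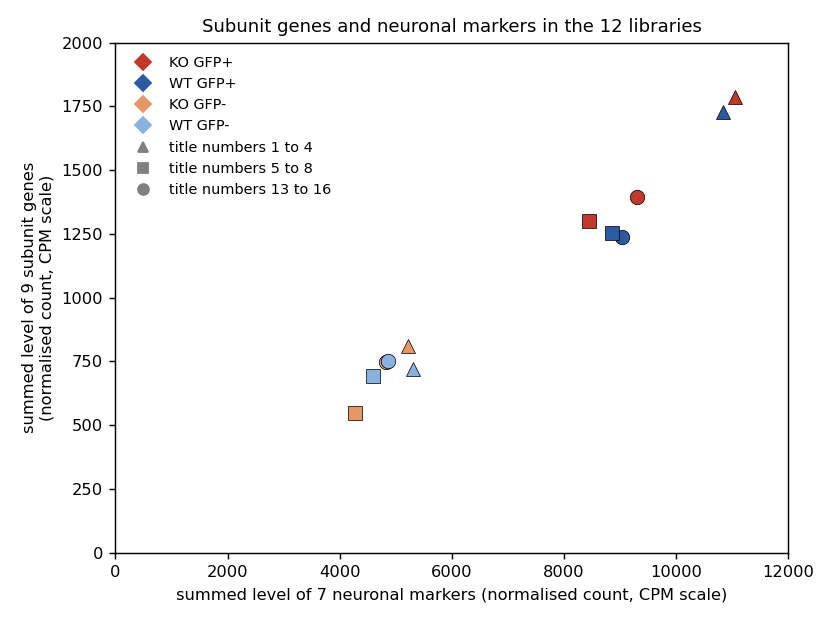
Summed normalised count of the 9 subunit genes (vertical axis) against that of 7 pan-neuronal markers (horizontal axis) in the 12 libraries, coloured by group, with symbols for the run of title numbers. The 6 GFP-positive libraries lie at 1237 or more on the vertical axis and at 8439 or more on the horizontal, and the 6 GFP-negative libraries at 811 or less and 5300 or less.

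Pan-neuronal markers differed between the fractions along with the subunit genes. Of 7 markers in the table, elav, nSyb, brp, Syt1, Appl, fne and cpx, 6 were called higher in GFP-positive cells of KO brains and 5 in WT brains. Of all tested genes, 23.6% were called higher in KO and 25.7% in WT brains. For the markers in WT brains the count was 3 under edgeR, quantile normalisation and total-count scaling, beside 1953, 2244 and 1133 of all 9912 tested genes. The marker elav, called in neither genotype by limma, was called lower in WT brains under DESeq2, quantile normalisation and total-count scaling. The marker sum was 9595 ± 1329 normalised counts in KO GFP-positive, 9575 ± 1099 in WT GFP-positive, 4775 ± 475 in KO GFP-negative and 4914 ± 361 in WT GFP-negative cells (SD, n = 3 each). The sum of the 9 subunit genes was 1494 ± 259, 1406 ± 279, 702 ± 138 and 721 ± 29.5 in the same groups. Expressed as a percentage of the marker sum, the subunit sum was 15.5 ± 0.604 in KO GFP-positive, 14.6 ± 1.18 in WT GFP-positive, 14.6 ± 1.57 in KO GFP-negative and 14.7 ± 0.980 in WT GFP-negative cells. The ratio of the subunit sum to this marker sum was therefore within the spread of libraries in all 4 groups, while the libraries of the GFP-positive fraction held the higher values of both sums without overlap. Appl was the largest part of the marker sum, at 3908 in KO and 4310 in WT GFP-positive cells. In GFP-negative cells Appl averaged 1848 in KO and 1856 in WT brains. The level ratio does not hold against elav alone. That gene averaged 596 ± 29.2 in KO GFP-positive, 584 ± 73.9 in WT GFP-positive, 628 ± 64.4 in KO GFP-negative and 659 ± 44.5 in WT GFP-negative cells. Of the 7 markers, 6 were called higher in WT brains with the run as a block, beside 30.6% of all tested genes. The GFP-negative fraction also held more of the progenitor transcripts and of the 4 glial transcripts given above. VGlut, the transporter that marks glutamatergic neurons, was higher in the GFP-positive fraction of both genotypes, at 1539 ± 636 in KO GFP-positive, 2379 ± 766 in WT GFP-positive, 308 ± 98.4 in KO GFP-negative and 333 ± 30.0 in WT GFP-negative cells. Summed over the GABAergic markers Gad1 and VGAT, libraries held 380 to 710 in KO and 112 to 150 in WT GFP-positive cells. GFP-negative libraries held 241 to 766 in KO and 363 to 530 in WT brains. Gad1 averaged 377 ± 158 in KO and 21.6 ± 8.98 in WT GFP-positive cells. The markers Gad1 and VGAT went opposite ways between the WT fractions. There Gad1 was called lower in GFP-positive cells (log2 difference -4.08) and VGAT higher (0.49). VGAT lost this call under edgeR, DESeq2, quantile normalisation and total-count scaling, and without the 2 rRNA-rich libraries. In KO brains VGAT was called higher in GFP-positive cells (0.92) and Gad1 was not called (-0.05). Of the 4 monoaminergic markers, Tdc2 averaged 105 ± 68.2 in KO and 14.9 ± 4.82 in WT GFP-positive cells, and Vmat 530 ± 275 and 333 ± 160. In the same groups Trhn averaged 11.7 ± 3.96 and 4.04 ± 2.16, while ple averaged 12.5 ± 6.80 and 44.4 ± 32.3. KO and WT GFP-negative cells averaged 2.91 and 3.91 for Tdc2 and 137 and 168 for Vmat. For Trhn they averaged 43.1 and 54.4, above GFP-positive cells, and for ple 6.19 and 6.12. The summed level of the 4 hemocyte markers in the table was 84.4 to 189 in KO GFP-positive, 85.0 to 191 in WT GFP-positive, 40.9 to 71.7 in KO GFP-negative and 24.0 to 46.3 in WT GFP-negative libraries. Of 3 tested, Pxn and Col4a1 were called higher in GFP-positive cells of both genotypes. Col4a1 lost its KO call under quantile normalisation (limma adjusted p = 0.0649), total-count scaling (0.093) and without title numbers 1 to 4 (0.165). Hml, the third, went the other way without a call, with log2 differences of -0.58 in KO and -0.34 in WT brains. Hml averaged at most 3.51 and NimC1 at most 0.861 in any group. The part of these cell types in the subunit differences between fractions or genotypes was not tested.

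The comparison of KO with WT cells asks how cells of a sorted fraction differ without rfx. KO and WT GFP-positive cells also differed in transmitter markers such as Gad1, as given above. Between KO and WT GFP-positive cells 0 of the 9 subunit genes were called in limma, edgeR or DESeq2, and 0 had an unadjusted limma p under 0.05. Of all tested genes, 3.07% were called in either direction, which is 304 genes, or 475 with the run as a block. The log2 differences ran from -0.10 for nAChRalpha2 to 0.38 for nAChRbeta1, with a median of 0.07 beside 0.01 for all tested genes. KO and WT libraries overlapped for all 9 genes. Of all tested genes, 8.16% had all KO libraries above and 5.94% all KO libraries below the WT ones. At these shares, counts of 0 among 9 genes do not set the subunit genes apart. The adjusted p-values of the 9 genes were between 0.842 and 0.995.

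**Figure D5:**
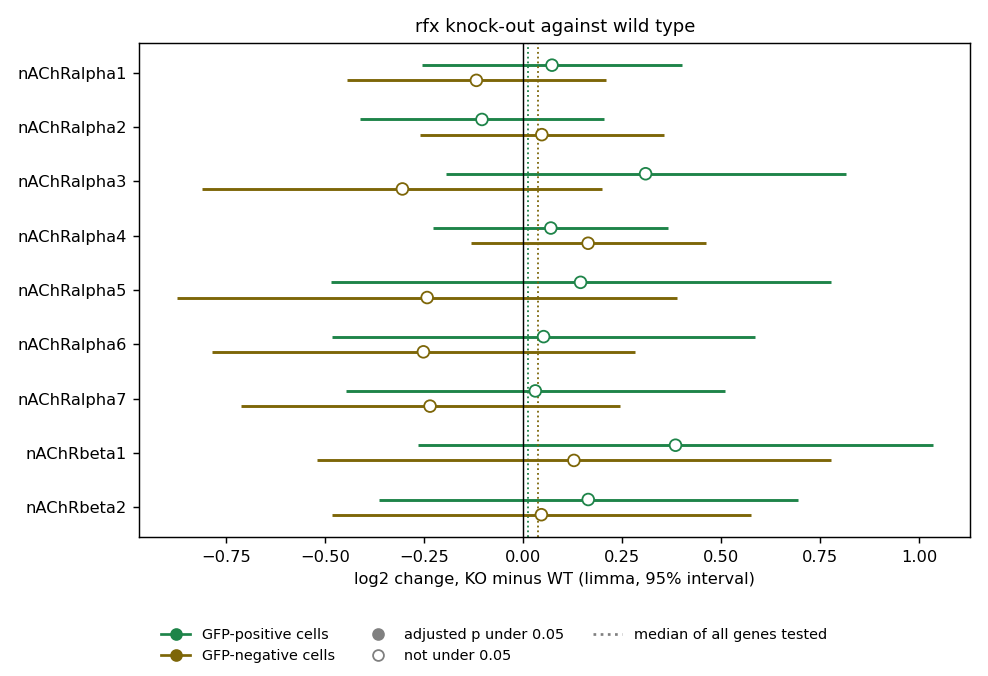
Log2 difference between KO and WT (horizontal axis, limma estimate with 95% interval) of the 9 subunit genes in GFP-positive and GFP-negative cells, with dotted lines at the median of all tested genes. Open points mark an adjusted p of 0.05 or more, which holds for all 18 values, and each interval includes 0.

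The intervals give the precision of the KO against WT difference in GFP-positive cells under the limma fit without the block. Lane and the differences in transmitter markers are not allowed for in these intervals. They were narrowest for nAChRalpha4, from -0.23 to 0.37 on the log2 scale, nAChRalpha2, from -0.41 to 0.20, and nAChRalpha1, from -0.25 to 0.40. A change of 1 on the log2 scale in either direction lies outside the 95% interval of each gene except nAChRbeta1, whose interval ran from -0.26 to 1.03. nAChRbeta1 averaged 159 ± 57.7 normalised counts in KO and 124 ± 54.7 in WT GFP-positive cells. nAChRalpha3 averaged 38.9 ± 9.18 in KO and 31.3 ± 8.56 in WT GFP-positive cells, with an interval from -0.20 to 0.81. Within the 3 runs of title numbers the KO library was the higher one for 6, 7 and 7 of the 9 genes. Lane and genotype are partly confounded, since KO libraries with title numbers 5 to 8 were on lane 7 and the WT libraries of that run on lane 6.

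Between KO and WT GFP-negative cells 0 of the 9 genes were called by limma, edgeR or DESeq2, and 0 had an unadjusted limma p under 0.05. Of all tested genes, 0.686% were called in either direction. Log2 differences ran from -0.30 for nAChRalpha3 to 0.16 for nAChRalpha4, with a median of -0.12 beside 0.04 for all tested genes. nAChRalpha3 averaged 23.4 ± 0.804 normalised counts in KO and 30.0 ± 9.12 in WT GFP-negative cells, and its interval ran from -0.81 to 0.20. All 9 genes overlapped between the genotypes. Over all tested genes, 11.9% had all KO libraries above and 4.19% all KO libraries below the WT ones. Here too, counts of 0 among 9 genes do not set the subunit genes apart. The 2 comparisons of fractions and the 2 comparisons of genotypes use the same 12 libraries, so their values are not independent of each other.

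nAChRbeta3, a divergent member of the family, had no row in the table. It lies on 2L from 545129 to 547096 on the plus strand, and 100% of its 1532 exon bases are shared with Ets21C, a transcription factor gene annotated on the other strand. In an unstranded library, reads from these bases cannot be given to either gene. Ets21C had a row and averaged 8.10 ± 1.75 normalised counts in KO GFP-positive, 3.15 ± 0.200 in WT GFP-positive, 7.46 ± 1.93 in KO GFP-negative and 8.45 ± 0.370 in WT GFP-negative cells. It was higher in KO than in WT GFP-positive cells (log2 difference 1.11 ± 0.20, limma adjusted p = 0.00693) and was singled out after its values were seen. How many of its reads came from nAChRbeta3 was not tested.

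Of 4 listed genes that make, move or break down acetylcholine, ChAT, ChT and Ace had a row. In KO brains 1 of these 3 was higher in GFP-positive cells, Ace, which encodes the acetylcholinesterase that ends the signal, with 218 ± 85.1 normalised counts in GFP-positive and 89.8 ± 41.8 in GFP-negative cells (limma adjusted p = 0.0160). In WT brains 0 of the 3 were called in limma, edgeR or DESeq2, and 1, Ace, had an unadjusted limma p under 0.05. With the run as a block, 3 of the 3 were called higher in GFP-positive cells of both genotypes. Of all tested genes, 23.6% were called higher in KO and 25.7% in WT brains without the block, and 28.6% and 30.6% with it. ChAT, the enzyme that makes acetylcholine and marks cholinergic neurons, averaged 95.6 ± 26.3 in KO GFP-positive, 110 ± 33.9 in WT GFP-positive, 67.9 ± 23.2 in KO GFP-negative and 74.9 ± 12.9 in WT GFP-negative cells. ChAT was called in none of the 5 comparisons without the block, and with it the adjusted p was 0.00244 in KO and 0.00215 in WT brains. Without the libraries with title numbers 1 to 4, ChAT was called higher in KO GFP-positive than in KO GFP-negative cells (adjusted p = 0.0247), as was the choline transporter gene ChT (adjusted p = 0.0374), and Ace was called higher in WT brains (adjusted p = 0.0404).

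Of 3 muscarinic receptor genes, the slower G protein-coupled acetylcholine receptors, mAChR-A and mAChR-B had a row. mAChR-A was higher in GFP-positive cells of both genotypes, with 255 ± 64.9 against 119 ± 33.8 normalised counts in KO brains (limma adjusted p = 0.00176) and 220 ± 36.2 against 102 ± 6.93 in WT brains (adjusted p = 0.00179), GFP-positive cells given before GFP-negative cells. mAChR-B averaged 32.4 ± 17.4 in KO GFP-positive, 20.8 ± 8.95 in WT GFP-positive, 24.5 ± 7.43 in KO GFP-negative and 23.0 ± 4.87 in WT GFP-negative cells and was not called.

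Among 12 genes for receptor assembly and for small Ly6 proteins, some of which are known to act on nicotinic receptors, 2 were higher and 2 lower in GFP-positive cells of KO brains. In WT brains 2 were higher and 3 lower. These shares lie below the 23.6% and 25.7% of all tested genes called higher in KO and WT brains and above the 12.9% and 12.3% called lower. With the run as a block, 3 were higher and 3 lower in each genotype. Over all 9912 tested genes the block gave 2832 higher and 1520 lower in KO and 3030 and 1507 in WT brains. Without the block the 2 higher genes were the same in both genotypes, RIC-3 and qvr. Relatives of RIC-3 in worms and mammals help nicotinic receptors to assemble. The Ly6 protein qvr is known to act on the Shaker channel and on nicotinic receptors. RIC-3 averaged 116 ± 9.32 in KO GFP-positive, 121 ± 19.5 in WT GFP-positive, 61.2 ± 3.53 in KO GFP-negative and 59.4 ± 3.09 in WT GFP-negative cells (limma adjusted p = 6.21e-05 in KO and 2.68e-05 in WT brains). qvr averaged 278 ± 37.8, 269 ± 13.7, 113 ± 26.6 and 119 ± 7.71 in the same groups (adjusted p = 3.14e-05 in KO and 8.05e-05 in WT brains). The Ly6 genes crok and rtv were lower in GFP-positive cells of both genotypes and twit was lower in WT brains. Of these, rtv lost its call in both genotypes under quantile normalisation and without title numbers 1 to 4, and in WT brains when the 2 rRNA-rich libraries were left out. The call of twit was lost under edgeR.

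The other pentameric channels of the same superfamily gate chloride or other ions. Of 12 listed, 10 passed the low-value filter. In GFP-positive cells of KO brains 5 of the 10 were higher and 0 lower, and in WT brains 3 were higher and 0 lower, or 4 with the run as a block. Of all tested genes 23.6% were called higher in KO and 25.7% in WT brains, so the WT share is near that of all genes. With the block, 30.6% of all tested genes were called higher in WT brains. GluClalpha, the glutamate-gated chloride channel, averaged 471 ± 134 in KO GFP-positive, 486 ± 136 in WT GFP-positive, 162 ± 38.3 in KO GFP-negative and 157 ± 10.1 in WT GFP-negative cells (limma adjusted p = 2.41e-04 in KO and 1.57e-04 in WT brains). Lcch3, a subunit related to GABA receptors, averaged 142 ± 17.2, 125 ± 11.6, 57.3 ± 9.04 and 52.3 ± 3.52 in the same groups (adjusted p = 8.72e-06 in KO and 1.19e-05 in WT brains). HisCl1, a histamine-gated chloride channel, was also called higher in both genotypes, at group means of 9.20 or less. In KO brains Rdl and SecCl were called too, both of which lost the call under edgeR and total-count scaling. Over these 4 lists, 0 of 27 tested genes were called between KO and WT in either fraction or in the interaction by limma, edgeR or DESeq2. At an unadjusted limma p under 0.05 there was 1 in GFP-positive cells, 2 in GFP-negative cells and 1 in the interaction. Of all tested genes 3.07%, 0.686% and 0.555% were called in these comparisons, so a count of 0 among 27 genes does not set these lists apart. Without the 2 libraries richest in rRNA reads, twit was called higher in KO than in WT GFP-positive cells (adjusted p = 0.0433) and in the interaction (adjusted p = 0.0274).

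The 9 subunit genes also differed in how alike their profiles over the 12 libraries were. Likeness was measured as the root mean square difference of log2 values after each gene was centred on its own mean, and it is descriptive, since all genes share the same libraries. Among the subunit genes, nAChRalpha5 and nAChRalpha6 were closest, at 0.142, followed by nAChRalpha1 and nAChRalpha4, at 0.156, and nAChRalpha2 and nAChRalpha4, at 0.178. nAChRalpha2 and nAChRalpha3 were furthest apart, at 0.621. Over 7254 genes searched outside the family, the nearest to nAChRalpha4 were Lcch3, at 0.0732, and CG3104, at 0.0766. The nearest to nAChRbeta2 were CG7990 (0.0819) and Csgalnact (0.0886), to nAChRalpha1 lncRNA:mimi (0.0884) and Alk (0.0991), and to nAChRalpha2 Rtca (0.0904) and CG40498 (0.105). The genes with weaker GFP differences had more distant neighbours. These were side (0.117) and LpR1 (0.129) for nAChRalpha5, Nlg3 (0.126) and c11.1 (0.139) for nAChRalpha7, Sh (0.139) and Teh1 (0.159) for nAChRalpha6, and CG42541 (0.147) and Ca-alpha1D (0.158) for nAChRalpha3.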

How the data were processed

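RNA from sorted cells, with 4 ng of total RNA per library, was made into libraries by the Clontech SMARTer and Illumina Nextera methods, per the labels' protocols. Per the submitters' processing notes, the build was BDGP6 and the tools were edgeR 3.10.5, HTSeq 0.6.1 and TopHat2 2.0.13. The authors deposited 1 table of normalised counts, a signal in which each library's values are whole multiples of a single value (100% of values, tolerance 0.001), that is, gene read counts over an effective library size on a CPM scale. Whole reads were recovered from it. Deposited column totals were higher in GFP-positive libraries, so the scaling differs between the fractions.

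Genes with a value of at least 1 in at least 3 libraries were tested on log2(value + 1) with limma-trend under R 4.3.3 (limma version 3.58.1). The fit had 12 libraries and 4 group means, was two-sided and used Benjamini-Hochberg adjustment. Ratios are of group means. An exact permutation test of 3 against 3 libraries cannot go below p = 0.1. edgeR 4.0.16 (quasi-likelihood) and DESeq2 1.42.0 on the recovered reads, other scalings, filters, pseudocounts, covariates and left-out libraries were alternatives. The scripts' tests were checked on simulated data. The simulation used the same dispersion for all genes and no shared deviation within a run, so it does not give error rates for these libraries. Of 12610 identifiers, 12389 were found in the BDGP6.54 annotation, which supplied names, positions and exon lengths.

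The named genes are the 10 subunit genes, Rfx, up to 4 called members of each list with the smallest p, and for each called subunit gene the 2 most alike genes outside the family among those with a mean of at least 5. ChAT, ChT, mAChR-B, the cell type markers, DZIP1, Pp1alpha-96A, Ets21C and mir-1017 fall outside this rule. The members and lists were chosen with earlier results of these data known. Replicate numbers follow the order of deposition. Libraries of a run of title numbers (1 to 4, 5 to 8, 13 to 16) were checked for pairing through the correlation across genes of their deviations from the group means. In the 4 comparisons of groups each of the 12 pairs was over 0.1 (0.11 to 0.60). Over all 18 pairs of libraries within a run, 15 were over 0.1, and the range was -0.34 to 0.60. Pairs between runs ranged from -0.57 to 0.48, so the pairing is not uniform. Values with the run as a block are given where they change a call of a subunit gene, and for some of the other named genes. The labels do not say what a run shares.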

Additional observations from a re-analysis of the deposited data

Results flagged for a closer look

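The Rfx transcript itself differed in its knock-out change between the fractions. Rfx averaged 1126 ± 170 normalised counts in KO and 2793 ± 217 in WT GFP-positive cells, and 53.0 ± 1.30 in KO and 73.7 ± 0.358 in WT GFP-negative cells (SD, n = 3 each). The interaction of genotype with GFP was -0.85 on the log2 scale (limma adjusted p = 0.0236). It was not called under quantile normalisation (-0.74, adjusted p = 0.212), under total-count scaling (-0.78, adjusted p = 0.239) or without the libraries with title numbers 1 to 4 (-0.87, adjusted p = 0.208). No subunit gene met any of the criteria for a closer look.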

How the results depend on the processing

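No subunit gene changed direction while called in any alternative. Apart from left-out single libraries, 517 subunit values kept their call, 7 gained and 7 lost one. Leaving out 1 library at a time gave 4 to 8 subunit genes called between the fractions of KO brains, 4 to 5 between those of WT brains, and 34 to 51 genes in all for the interaction. Between the fractions, these fits called 2682 to 3860 of all tested genes in KO and 2962 to 3872 in WT brains, in either direction. With a replicate block by run of title numbers, 7 subunit genes were called in WT brains, with nAChRalpha5, nAChRalpha6 and nAChRalpha7 added, and 9 in KO brains, with nAChRbeta1 added. With this block 30.6% of all tested genes were called higher in WT and 28.6% in KO brains. The block changed no call of a subunit gene between KO and WT or in the interaction. In KO against WT GFP-positive cells it added calls of VGlut (log2 difference -0.66, limma adjusted p = 0.0238) and VGAT (0.46, 0.0202). There it also added ple (-1.61, limma adjusted p = 0.00217). In KO against WT GFP-negative cells it added Rfx (-0.47, limma adjusted p = 0.0436), and in the interaction Tdc2 (3.12, 0.00101). Counts over all genes moved more. The block gave 475 calls between KO and WT GFP-positive cells (304 without it) and 101 for the interaction (55). DESeq2 gave 505 for KO against WT GFP-positive cells, 152 for KO against WT GFP-negative cells (68 by limma) and 117 for the interaction, and a fit of only the groups compared gave 187 for the GFP-positive cells. Without title numbers 1 to 4 the GFP-negative comparison gave 40 and the interaction 32. The cause was not tested. The split of calls between the fractions depends on scaling: in KO brains 2341 genes were higher and 1274 lower, under total-count scaling 1344 and 2029, under DESeq2 2159 and 1858, under quantile normalisation 2118 and 1735, and under edgeR 1884 and 1677. In WT brains the split was 2550 and 1215, under total-count scaling 1133 and 2263, under DESeq2 2048 and 1899, under quantile normalisation 2244 and 1685, and under edgeR 1953 and 1560. Total-count scaling put the median of all genes at -0.13 in KO and -0.18 in WT brains, beside 0.07 in KO and 0.09 in WT brains as deposited. Counting error at the lowest coverage of each subunit gene was 2.18% to 4.45%, and the spread between replicates 1.95% to 45.0%.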
